A study of Rattus norvegicus with 25 samples.

Results

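The genes described here are 40 rat genes of DNA replication and cell division, read in McArdle-RH7777 rat hepatoma cell lines that overexpressed a Sar1 GTPase or did not. The members were taken as every probe set whose only gene symbol in the platform annotation is one of these 40 genes, and 37 genes were measured, by 47 of the 31042 probe sets tested. The list holds 24 replication genes (21 measured), the G1/S cyclin Ccne1, and 15 mitotic genes (15 measured). Cdc6 and Gins2 had no probe set of a single symbol, and the 2 probe sets of Rrm2 carry another symbol as well, so these 3 genes have no value here. Of the measured genes, 7 have more than 1 probe set; each gene is described by its brightest probe set, and the 10 dimmer ones are named where they were called or had the other sign in Sar1B:H79G against control.

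The study asked how the Sar1 isoforms act on lipoprotein secretion and gene expression. Sar1 is the small GTPase that starts assembly of COPII, the coat that buds transport vesicles from the endoplasmic reticulum. The Sar1A and Sar1B lines carried FLAG-tagged human SAR1A or SAR1B, and the Sar1B:H79G lines carried a constitutively active SAR1B that cannot complete GTP hydrolysis; the controls carried the empty vector. All lines, the controls included, also expressed the tetracycline repressor, were grown from picked clones under blasticidin and Zeocin, and received tetracycline at 1 µg/ml for 24 h. RNA from 7 lines was hybridised to 25 Affymetrix arrays: 2 control lines (2 and 3 arrays), 1 Sar1A line (4 arrays), 2 Sar1B lines (4 arrays each) and 2 Sar1B:H79G lines (4 arrays each). Arrays of one line are technical replicates, so every test compares line means, with n = 2 lines in each group but Sar1A, which has n = 1. Each line is a clone, so a difference between 2 lines is also a difference between clones.

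A dividing cell copies its genome in S phase and separates the copies in M phase. The MCM helicase is loaded onto origins by licensing factors such as Cdt1 and Cdc6, opens the double helix with the GINS complex, and is followed by DNA polymerases held on DNA by the Pcna clamp, which the Rfc complex loads. Cyclin E, encoded by Ccne1, drives entry into S phase with Cdk2, whereas cyclins A and B with Cdk1, the Aurora kinases, Plk1 and the spindle checkpoint kinases Bub1 and Ttk act later, in G2 and mitosis. In cycling cells the replication genes are transcribed mainly at G1/S under E2F factors and the mitotic genes in G2 under the B-Myb, FoxM1 and MuvB machinery. Hepatocytes in adult liver rarely divide, while hepatoma lines cycle continuously.

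The values are log2 signals, and a difference is a difference between group means on that log2 scale. Array medians lay between 8.10 and 8.16. A probe set was called where limma's test over 31042 probe sets gave an adjusted p under 0.05. The control arrays and the arrays of the 5 Sar1 lines carry 2 different series of array codes, so in any comparison with control the code series and the Sar1 construct cannot be told apart; Sar1B:H79G against Sar1B or Sar1A lies within one series. RNA measures moved with that split: the 5′ minus 3′ difference of the β-actin control probe sets was -0.88 in the control lines on average. In the Sar1 lines it lay between -0.71 and -0.49. It also differed within the Sar1 series, at -0.71 and -0.63 in Sar1B:H79G, -0.61 in Sar1A and -0.50 and -0.49 in Sar1B. Comparisons within that series are therefore not free of this difference. The part of the code series and of the RNA measures in the results was not tested. Of 10 hepatocyte markers 9 were measured, and their summed log2 value was 107.6 to 110.8 in the control lines, 107.4 in Sar1A, 107.3 to 109.9 in Sar1B and 104.5 to 105.8 in Sar1B:H79G. The measured fibroblast (6), leukocyte (5) and endothelial (4) markers had summed log2 values of 44.2 to 44.8, 39.3 to 40.3 and 27.7 to 28.2 over all lines, and none can be placed at 0 because the files hold no detection calls. The human transgenes were not examined on this rat array.

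The plainest pattern was one of lines and of gene class. In Sar1B:H79G line 1, 13 of 15 mitotic genes and 16 of 21 replication genes lay below their own mean of the 7 lines, whereas in Sar1B line 2 15 and 18 lay above it. The median mitotic gene was at a log2 value of -0.33 from its mean in Sar1B:H79G line 1 and at 0.22 in Sar1B line 2. The median replication gene was at -0.08 and 0.11 in the same lines, and the former was the lowest replication median of the 7 lines. Pola1, Rrm1, Rfc2, Rfc4 and Rfc5 had their lowest line mean in Sar1B:H79G line 1. Arrays of one line also differed. In Sar1B:H79G line 1 the array medians ran from -0.17 to 0.03 for the replication genes and from -0.47 to -0.23 for the mitotic genes. In Sar1B line 2 they ran from -0.07 to 0.18 and from 0.07 to 0.30. Over all 14217 genes the line medians stayed between -0.03 and 0.01.

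**Figure D1:**
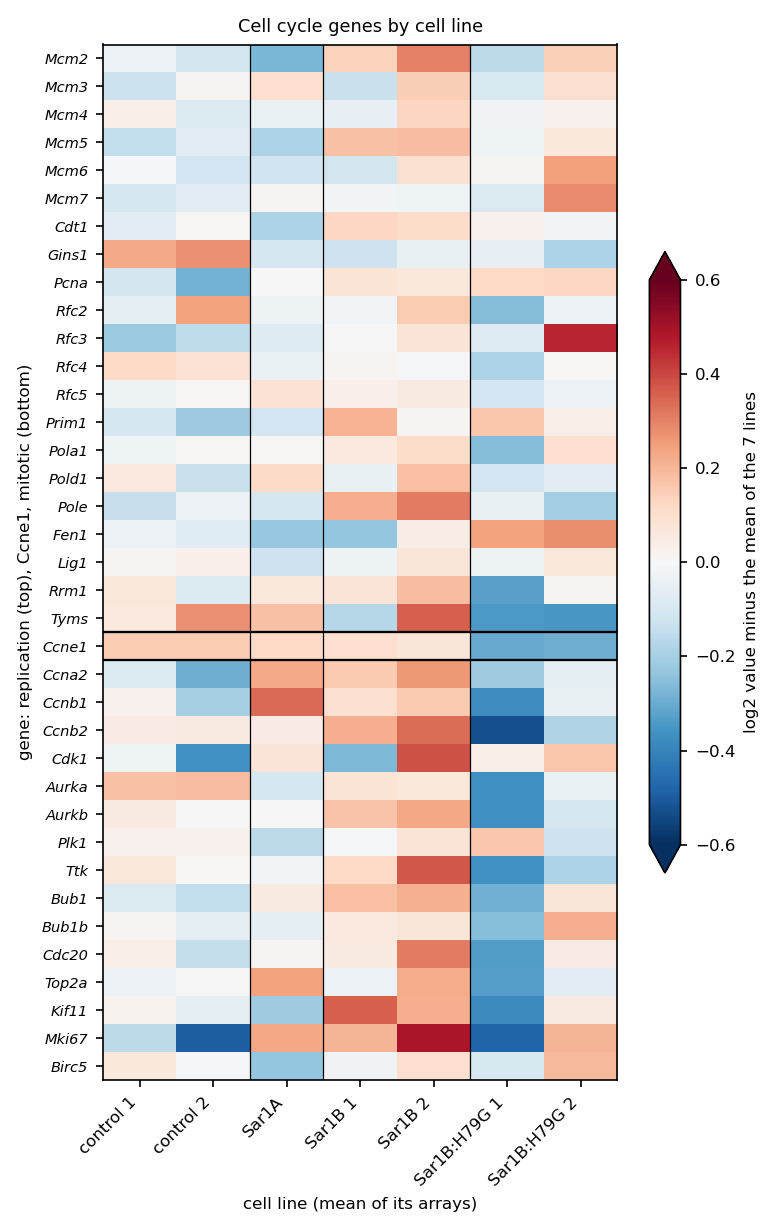
Mean log2 value of each of the 37 measured members in each of the 7 lines, as the deviation from the gene's mean over the lines (colour; columns are lines, rows are genes, with black lines around Ccne1 between the 21 replication genes above and the 15 mitotic genes below). The Sar1B:H79G line 1 column is blue in 13 of 15 mitotic genes and the Sar1B line 2 column is red in all 15.

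Sar1B:H79G was first compared with Sar1B, the same protein able to hydrolyse GTP, in the same array series. The groups did not differ in GTP hydrolysis alone. By the paper's protein measurements, the Sar1B:H79G lines held more recombinant Sar1 than the Sar1B lines. The paper also reports raised endogenous Sar1a mRNA and protein in the Sar1B:H79G lines. The part of these differences was not tested. The lines with the active mutant had lower levels of Ccne1, of the mitotic genes Ccnb2, Ttk and Aurkb, and of the polymerase gene Pole, by 1.30- to 1.54-fold. Of all 31042 probe sets 8.63% were called in this comparison, 5.29% lower and 3.34% higher, and of the brightest probe sets of all genes 12.1% were called. Among the members, 3 of 15 mitotic genes, 1 of 21 replication genes and Ccne1 were called, all 5 lower. Counted in either direction, 5 of 37 members is not far from the share over all genes. By brightest probe sets, 1021 of 14217 genes were called lower and 697 higher. Whether the members exceed the lower share was not tested, so these counts say little about the members as a class.

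Ccne1 had line means of 10.01 and 10.01 in the control lines, 9.98 in Sar1A, 9.96 and 9.94 in the Sar1B lines, and 9.56 and 9.57 in the Sar1B:H79G lines. The Sar1B:H79G lines stood apart from the 5 other lines, and their highest array (9.64) lay below the lowest array of any other line (9.86). Against Sar1B the log2 difference was -0.38 (SE 0.06, 95% confidence interval -0.53 to -0.24, adjusted p = 0.0155). Against control it was -0.45 (SE 0.06, adjusted p = 0.0056), and against Sar1A -0.42 (SE 0.07, adjusted p = 0.0424). Ccne1 was the one member called in all 3 comparisons of Sar1B:H79G. The call against control was kept under all 15 alternative settings. Here and below these settings are not all distinct. Among control, Sar1B and Sar1B:H79G, leaving out a line of the group outside the comparison repeats the fit with only the groups compared. One setting counts each array as a replicate. The call against Sar1B was lost with any Sar1B:H79G or Sar1B line left out and with a trended, robust variance (adjusted p up to 0.074), with log2 differences between -0.40 and -0.31 throughout, and the call against Sar1A was kept under 4 of 14 settings.

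Ccnb2, a B-type cyclin that activates Cdk1 at mitosis, had line means of 10.61 in both control lines and in Sar1A, 10.78 and 10.90 in the Sar1B lines, and 10.04 and 10.38 in the Sar1B:H79G lines. It was lower in Sar1B:H79G than in Sar1B by 0.63 (log2 difference of -0.63, SE 0.12, 95% confidence interval -0.92 to -0.34, adjusted p = 0.0299), and the arrays of the groups did not overlap. Part of this distance lay on the Sar1B side: the Sar1B lines were 0.23 above control (adjusted p = 0.26), and Sar1B:H79G was -0.40 against control (adjusted p = 0.058). The call against Sar1B was kept under 10 of 15 alternative settings.

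Ttk, the spindle checkpoint kinase also called Mps1, had line means of 10.57 and 10.51 in control, 10.48 in Sar1A, 10.62 and 10.87 in Sar1B, and 10.14 and 10.32 in Sar1B:H79G. Its log2 difference against Sar1B was -0.52 (SE 0.11, adjusted p = 0.0384), and the dimmer Ttk probe set gave -0.42 (adjusted p = 0.098). Both Sar1B:H79G lines were the lowest of the 7 for the brighter set, with no overlap of arrays with Sar1B, and the call was kept under 8 of 15 settings. Aurkb, the kinase of the chromosomal passenger complex, had line means of 11.50 and 11.45 in control, 11.45 in Sar1A, 11.62 and 11.68 in Sar1B, and 11.08 and 11.35 in Sar1B:H79G. Its log2 difference against Sar1B was -0.44 (SE 0.10, adjusted p = 0.0469), and line 1 lay further from the rest than line 2. The Aurkb call was lost under 9 of 15 alternative settings, with adjusted p up to 0.19.

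Pole, the catalytic subunit of the leading strand polymerase, showed another order of lines. Its line means were 8.97 and 9.07 in control, 9.00 in Sar1A, 9.32 and 9.41 in Sar1B, and 9.06 and 8.90 in Sar1B:H79G. The log2 difference of Sar1B:H79G against Sar1B was -0.39 (SE 0.08, adjusted p = 0.0417), while against control it was -0.04 (adjusted p = 0.77). The Sar1B lines were the high ones, at 0.35 above control (adjusted p = 0.055), and their arrays did not overlap those of control or Sar1B:H79G. The call was lost under 9 of 15 alternatives.

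**Figure D2:**
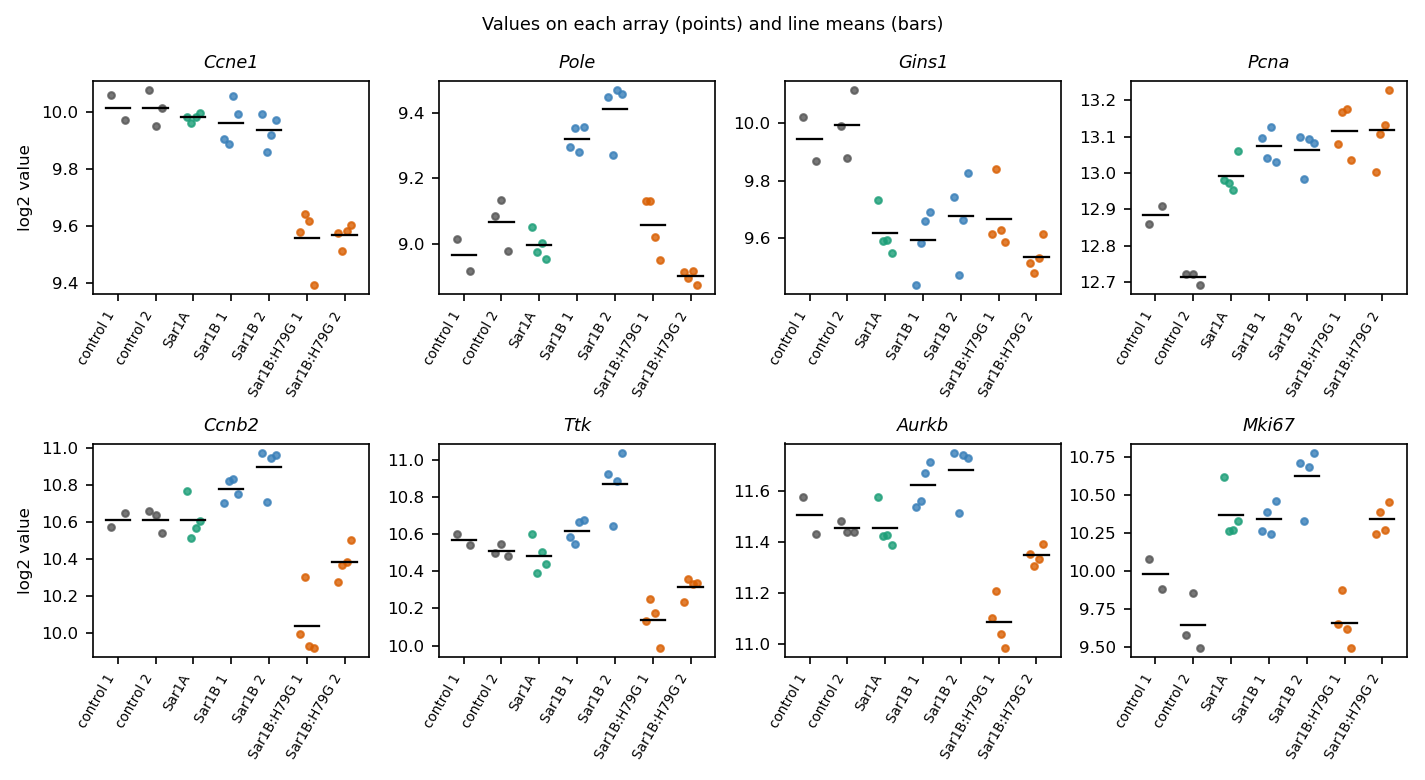
Log2 value of 8 members on each array (points, coloured by group) with the mean of each line (black bars); the 7 members with an adjusted p under 0.05 in any comparison and Mki67, added for its spread. The y axes differ between panels and do not start at 0. Ccne1 is low in both Sar1B:H79G lines alone, Pole is high in both Sar1B lines alone, and Mki67 is at 9.66 in one Sar1B:H79G line and 10.34 in the other.

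The promoters of 4 of these 5 genes are printed to show the letters that replication and mitotic promoters are known for; Aurkb has no entry in the promoter table. Sequences are RefSeq's, assembly GRCr8, and run 5′ to 3′ on the gene's strand from 250 bases before to 50 bases after the start. Capitals mark matches on either strand to TTTGGCG or TTTCCCG (E2F-like), to CCAAT (the CCAAT box) and to TTTGAA or TTCGAA (CHR-like, after the cell cycle homology region of mitotic promoters). No matches overlap in the sequences printed, and TTCGAA reads the same on both strands.
Ccne1, GRCr8 chr1:99927860-99928159, minus strand: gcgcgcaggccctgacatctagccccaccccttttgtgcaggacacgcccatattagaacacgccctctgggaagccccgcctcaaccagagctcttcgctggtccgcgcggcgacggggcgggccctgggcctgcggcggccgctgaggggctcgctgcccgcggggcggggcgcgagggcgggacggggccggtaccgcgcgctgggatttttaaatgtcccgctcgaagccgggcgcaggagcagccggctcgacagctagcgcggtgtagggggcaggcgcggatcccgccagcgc
Pole, GRCr8 chr12:52053613-52053912, minus strand: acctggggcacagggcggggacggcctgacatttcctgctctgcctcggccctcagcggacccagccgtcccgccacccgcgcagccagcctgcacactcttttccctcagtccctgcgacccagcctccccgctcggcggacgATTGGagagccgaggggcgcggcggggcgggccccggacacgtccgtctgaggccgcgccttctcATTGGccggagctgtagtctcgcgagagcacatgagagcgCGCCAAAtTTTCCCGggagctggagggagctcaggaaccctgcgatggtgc
Ccnb2, GRCr8 chr8:79981609-79981908, minus strand: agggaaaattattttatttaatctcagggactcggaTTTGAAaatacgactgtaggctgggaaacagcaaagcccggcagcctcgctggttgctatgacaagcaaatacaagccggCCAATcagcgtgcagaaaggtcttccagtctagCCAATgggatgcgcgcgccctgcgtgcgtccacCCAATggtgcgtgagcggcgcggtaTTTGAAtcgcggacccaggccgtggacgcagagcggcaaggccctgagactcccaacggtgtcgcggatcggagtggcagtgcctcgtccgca
Ttk, GRCr8 chr8:93634389-93634688, plus strand: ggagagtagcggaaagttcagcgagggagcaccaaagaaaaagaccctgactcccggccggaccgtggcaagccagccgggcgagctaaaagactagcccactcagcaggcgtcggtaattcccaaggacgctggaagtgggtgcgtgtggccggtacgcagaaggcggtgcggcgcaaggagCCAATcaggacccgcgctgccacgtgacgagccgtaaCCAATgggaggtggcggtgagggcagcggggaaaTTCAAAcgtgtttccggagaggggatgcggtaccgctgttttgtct

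In this window Ccne1 held none of the motifs, Pole held 2 E2F-like matches and 2 CCAAT boxes, Ccnb2 held 3 CCAAT boxes and 2 CHR-like matches, and Ttk held 2 CCAAT boxes and 1 CHR-like match. The table had promoters of 35 members. These include Gins2, which was not measured, and lack Cdc6, Rrm2, Mcm4, Ccna2 and Aurkb. E2F-like matches were in 11 of 21 replication promoters, 1 of 13 mitotic promoters and 4.96% of all 33469 promoters. CHR-like matches were in 4 of 21 replication promoters, 9 of 13 mitotic promoters and 19.7% of all. A CCAAT box was in 13 of 21, 10 of 13 and 37.5%. Among promoters of genes on the array the shares were 6.82%, 14.4% and 36.8% for the E2F-like, CHR-like and CCAAT motifs. The E2F-like and CHR-like letters thus fell largely in different member classes, and a match here is a stretch of letters, not a bound site.

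For the classes as wholes, the median log2 difference of Sar1B:H79G against Sar1B was -0.33 over the 15 mitotic genes, -0.09 over the 21 replication genes and 0.01 over all 14217 genes. Of the mitotic genes 13 of 15 had a difference below 0, against 16 of 21 replication genes and 46.5% of all genes. All arrays of Sar1B:H79G lay below all arrays of Sar1B for 4 mitotic genes (Ccna2, Ccnb2, Aurkb and Ttk) and 1 replication gene (Pole), beside 7.87% of all probe sets. The mitotic median depended on the line: it was -0.49 with Sar1B:H79G line 2 left out and -0.16 with line 1 left out. With line 2 left out 5 mitotic genes were called (Ccnb2, Aurka, Aurkb, Bub1 and Kif11), and with line 1 left out 1 was (Ccnb2).

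**Figure D3:**
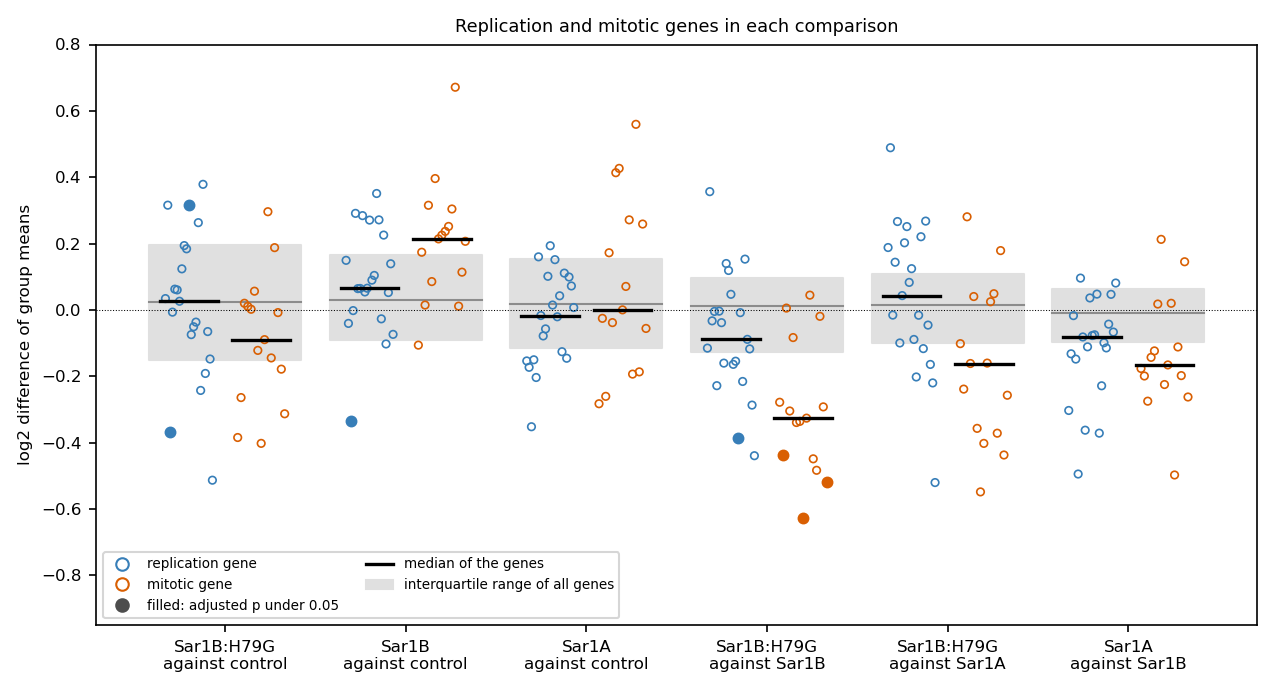
Log2 difference of group means for each of the 21 replication genes (blue) and 15 mitotic genes (orange) in the 6 comparisons; filled points have an adjusted p under 0.05, black bars are the medians of the genes, and the grey box and line are the interquartile range and the median of all 14217 genes. In Sar1B:H79G against Sar1B the mitotic median is -0.33 and the replication median -0.09.

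Within the mitotic class, the cyclins other than Ccnb2 went the same way without a call. Ccna2, the A-type cyclin of S phase and G2, differed by -0.34 (adjusted p = 0.10), and Ccnb1, the main mitotic cyclin, by -0.34 (adjusted p = 0.20). Cdk1, their kinase, had line means of 11.83 and 12.48 in Sar1B and 12.13 and 12.26 in Sar1B:H79G, with a difference of 0.04 (95% confidence interval -0.49 to 0.58). The Sar1B lines lay further apart in Cdk1 than the groups did. Aurka, the centrosome and spindle Aurora kinase, differed by -0.28 (adjusted p = 0.22), and Plk1, the Polo kinase, by -0.02 (95% confidence interval -0.27 to 0.23). Of the checkpoint genes, Bub1 differed by -0.30, Cdc20, an activator of the anaphase-promoting complex, by -0.33, and Bub1b by -0.08, with adjusted p from 0.21 to 0.85. The spindle motor Kif11 (-0.45), the decatenating enzyme Top2a (-0.29) and the proliferation antigen Mki67 (-0.48) also passed no call (adjusted p from 0.13 to 0.34), and Birc5, or survivin, was at 0.01.

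Within the replication class, the 6 MCM genes differed by -0.23 (Mcm2) to 0.14 (Mcm6) between Sar1B:H79G and Sar1B, with 4 below 0. The licensing factor Cdt1 was at -0.12 and the GINS gene Gins1 at -0.03. The clamp Pcna and its loader genes Rfc2, Rfc3, Rfc4 and Rfc5 ranged from -0.22 to 0.15, and the polymerase genes Prim1, Pola1 and Pold1 from -0.16 to -0.01. Fen1, the flap nuclease that trims Okazaki fragments, was the replication gene that went furthest up: its line means were 10.53 and 10.80 in Sar1B and 11.00 and 11.04 in Sar1B:H79G. Its difference of 0.36 did not pass the test (95% confidence interval 0.12 to 0.60, adjusted p = 0.088). Its Sar1B:H79G arrays lay wholly above those of Sar1B, as did 5.37% of all probe sets. The ligase Lig1 was at -0.0047. Of the nucleotide supply genes, Rrm1 differed by -0.29 and Tyms, thymidylate synthase, by -0.44 (adjusted p = 0.21), the latter with Sar1B lines at 8.72 and 9.25.

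Sar1B:H79G against control asked what the active mutant did relative to empty vector cells. Ccne1 and Gins1 were lower and Pcna was higher in Sar1B:H79G, and no mitotic gene was called by limma, with 4 of 15 at an unadjusted p under 0.05 beside 38.9% of all probe sets. In all, 22.3% of probe sets were called, 9.17% lower and 13.2% higher, and 24% of genes by their brightest set, beside 3 of 37 members. Mitotic genes were called under other settings: with quantile normalization Ccnb2, Aurka, Aurkb and Ttk were lower, and with Sar1B:H79G line 2 left out Ccnb2, Aurka and Aurkb were. The line number as a block gave Ccnb2 lower, and the line as a random block gave Ccnb2, Aurka, Aurkb and Ttk lower and Cdk1 higher. Replication genes were called as well. Quantile normalization gave Gins1, Rfc4, Rfc5 and Tyms lower. The line number as a block gave Gins1 lower and Pcna and Prim1 higher. The random block gave Gins1, Rfc2 and Tyms lower and Pcna, Rfc3, Prim1 and Fen1 higher. The median difference was 0.03 over the replication genes (-0.08 with quantile normalization), -0.09 over the mitotic genes and 0.02 over all genes. The mitotic median was -0.21 with quantile normalization, 0.0019 with probe sets averaged by gene, -0.28 with Sar1B:H79G line 2 left out and 0.07 with line 1 left out.

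Gins1, a subunit of the GINS complex of the replicative helicase, had line means of 9.94 and 9.99 in control, 9.62 in Sar1A, 9.59 and 9.68 in Sar1B, and 9.67 and 9.54 in Sar1B:H79G. All 5 Sar1 lines were below both control lines, so the levels split by array series and construct, not between Sar1B:H79G and the other Sar1 lines. The log2 difference was -0.37 for Sar1B:H79G (SE 0.07, adjusted p = 0.0209), -0.33 for Sar1B (SE 0.07, adjusted p = 0.0487) and -0.35 for Sar1A (adjusted p = 0.107). With either control line left out neither of the first 2 calls was kept (for Sar1B:H79G, adjusted p up to 0.11).

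Pcna, the sliding clamp, had line means of 12.88 and 12.71 in control, 12.99 in Sar1A, 13.07 and 13.06 in Sar1B, and 13.11 and 13.12 in Sar1B:H79G. The Sar1 lines were again on one side of the controls, here above. The log2 difference of Sar1B:H79G against control was 0.32 (SE 0.08, adjusted p = 0.0333) and fell to 0.03 with quantile normalization, where it was no longer called (adjusted p = 0.79). The call was kept under 7 of 15 alternative settings and was also lost with control line 2 or either Sar1B or Sar1B:H79G line left out, with only the groups compared, and with a trended, robust variance. Tyms differed by -0.51 (adjusted p = 0.080), Fen1 by 0.32 (adjusted p = 0.067) and Aurka by -0.38 (adjusted p = 0.053), and none of them was called.

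In Sar1B:H79G against control the dimmer probe set was called and the brighter was not for 2 genes. For Lig1 the brighter set was at -0.01 and the dimmer set at 0.54 (adjusted p = 0.0143), with dimmer set line means of 8.98 and 8.76 in control and 9.36 to 9.56 in the Sar1 lines. For Kif11 the brighter set was at -0.15 and the dimmer set at 0.43 (adjusted p = 0.0474). Both dimmer sets were also called higher in Sar1B against control, by 0.63 and 0.80. The direction of these genes against control thus rests on which probe set is read; against Sar1B both Kif11 sets were below 0 (-0.45 and -0.37). Without a call, the brighter and dimmer sets also had opposite signs against control for Ccnb1 (-0.12 and 0.30) and Ttk (-0.31 and 0.09), and 1 of the 5 Cdc20 sets was above 0 (0.07) while the brightest was at -0.09. For Top2a both sets were below 0, at -0.18 and -0.40 (adjusted p = 0.14 for the dimmer set). The arrays of the dimmer set lay wholly below those of control, as did 11.1% of all probe sets.

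In Sar1B against control, Gins1 was the 1 of 37 members called by its brightest set, beside 8.29% of all probe sets (2.01% lower, 6.28% higher) and 6.73% of genes. None of the mitotic genes was called by limma, with 3 of 15 at an unadjusted p under 0.05 beside 29.4% of all probe sets. Their median log2 difference was 0.21 (0.08 with quantile normalization), 14 of 15 were above 0 with Aurka as the exception (43.2% of all genes were below 0), and the arrays of Ccna2, Ccnb2, Bub1 and Mki67 lay wholly above those of control, as did 13.7% of all probe sets. The replication median was 0.07, or -0.06 with quantile normalization, and the median of all genes 0.03. Of the 21 replication genes 15 were above 0, and 6 had an unadjusted p under 0.05 by limma. The arrays of 6 replication genes (Mcm2, Mcm5, Pcna, Rfc3, Prim1 and Pole) also lay wholly above those of control. Those of Gins1 lay wholly below, as did 5.3% of all probe sets. Mki67 had line means of 9.98 and 9.64 in control, 10.37 in Sar1A, 10.34 and 10.63 in Sar1B and 9.66 and 10.34 in Sar1B:H79G. Its difference between Sar1B and control was 0.67 (95% confidence interval 0.09 to 1.25, adjusted p = 0.13).

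The single Sar1A line gave no called member against control, where 1.18% of probe sets and 0.865% of genes were called by limma, and none against Sar1B, where 1 probe set was called (0.00322% of probe sets, 0.00703% of genes). At an unadjusted p under 0.05 there were 3 of 37 members against control (22.8% of all probe sets) and 5 of 37 against Sar1B (6.56%). The arrays of Ccna2, Ccnb1, Cdk1, Top2a and Mki67 lay above all control arrays and those of Plk1 and Birc5 below, as were 18.6% and 10.4% of all probe sets, so the mitotic genes did not share a side in this line. Between Sar1B:H79G and Sar1A, where 2.96% of probe sets and 4.2% of genes were called, Ccne1 was the member called. The median difference there was -0.16 over the mitotic genes (0.02 with Sar1B:H79G line 1 left out and -0.35 with line 2 left out), 0.04 over the replication genes and 0.01 over all genes. With 1 Sar1A line, its spread is assumed to be that of the other groups. The comparisons share lines, so the same Sar1B:H79G and control values enter several of them.

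**Figure D4:**
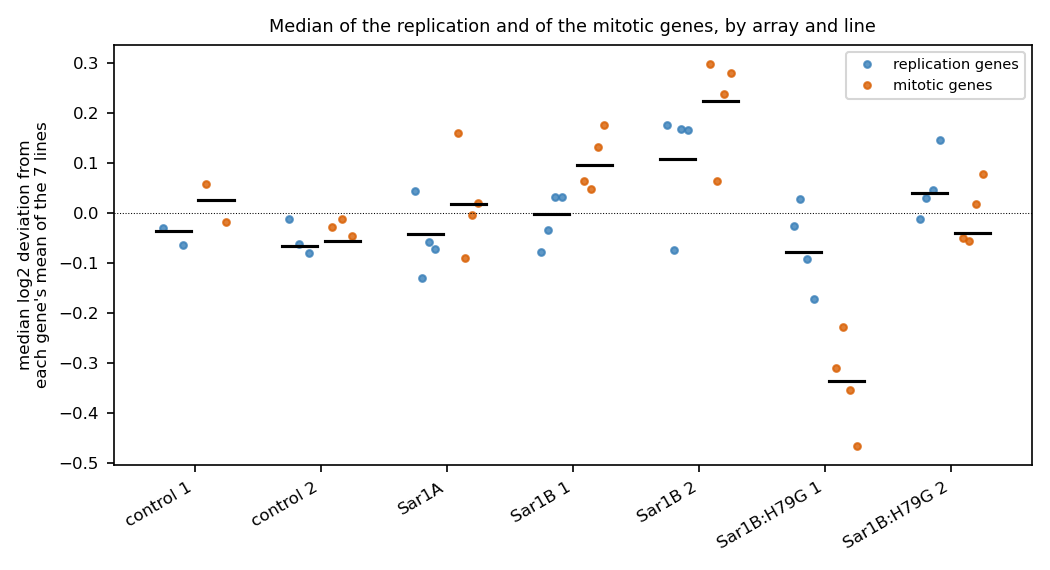
Median over the 21 replication genes (blue) and over the 15 mitotic genes (orange) of the log2 deviation from each gene's mean of the 7 lines, for each array (points) and each line (black bars). The mitotic bar is below the replication bar in both Sar1B:H79G lines and above it in the 5 other lines, by 0.01 in control line 2.

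Set beside each other line by line, the mitotic median exceeded the replication median by 0.06 and 0.01 in the control lines, 0.06 in Sar1A and 0.10 and 0.11 in the Sar1B lines. In the Sar1B:H79G lines the difference had the other sign, at -0.26 in line 1 and -0.08 in line 2. On array 1 of control line 2 the mitotic median (-0.03) also lay below the replication median (-0.01). Each deviation is taken from a mean that holds all 7 lines, so low values in some lines raise the deviations of the others. The classes were not scored with a test, since their members were chosen with results of these arrays known.

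The Sar1B:H79G lines also stood apart from each other in the mitotic genes; whether this exceeds their distance in the replication genes was not tested. Line 2 was above line 1 in 14 of 15 mitotic genes, with a median difference of 0.33, and in 16 of 21 replication genes, with a median of 0.09, beside 51.1% of all genes and 47% of all probe sets. For 10 mitotic genes every array of line 2 was above every array of line 1, beside 11.5% of all probe sets. By brightest probe sets this held for 2282 of 14217 genes. The largest mitotic difference was in Mki67 (0.68), and Plk1 was the gene that went the other way (-0.29). Every array of line 2 was also above every array of line 1 for 8 of 21 replication genes. For Prim1 and Pole every array of line 2 was below, beside 9.22% of all probe sets and 1468 of 14217 genes. In the Sar1B lines, line 2 was above line 1 in 13 of 15 mitotic genes (median 0.10) and 16 of 21 replication genes (median 0.09), beside 51.4% of all probe sets. In the control lines it was above in 3 of 15 (median -0.07) and 12 of 21 (median 0.03), beside 45.6%. Ccne1, by contrast, differed by 0.01 between the Sar1B:H79G lines.

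**Figure D5:**
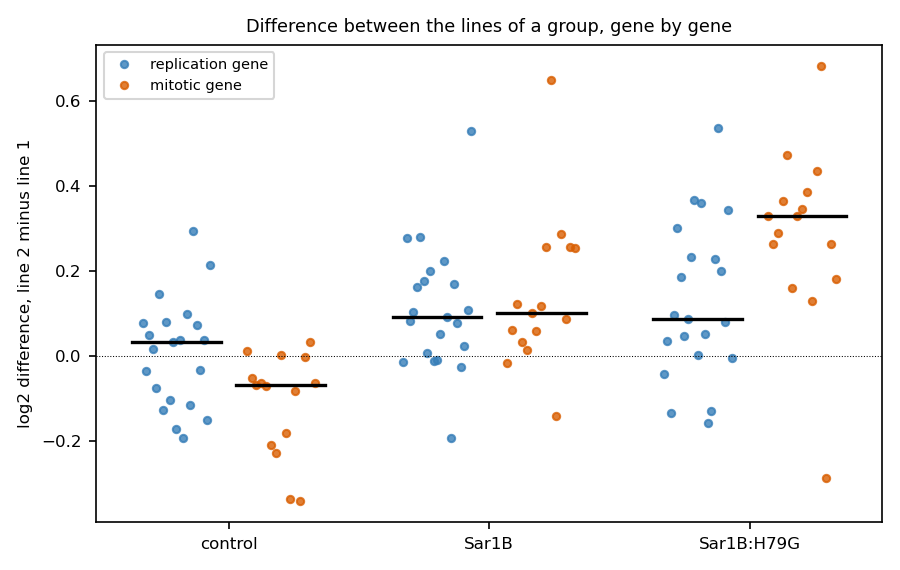
Log2 difference between line 2 and line 1 of the control, Sar1B and Sar1B:H79G groups for each replication gene (blue) and mitotic gene (orange), with the median of each class as a black bar. The mitotic median is 0.33 in Sar1B:H79G, -0.07 in control and 0.10 in Sar1B.

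Genes of the same pathways outside the members were read from 4 lists, beside 24% of all genes called against control and 12.1% against Sar1B. Of 28 measured G1 regulators and E2F and Rb family genes, 4 were called higher and 6 lower in Sar1B:H79G against control, and 1 higher and 4 lower against Sar1B. The cyclin-dependent kinase inhibitor Cdkn1a (p21) was the one called higher in both: its line means were 10.57 and 10.44 in control, 10.37 in Sar1A, 10.31 and 9.93 in Sar1B, and 11.22 and 11.42 in Sar1B:H79G, a log2 difference of 1.20 against Sar1B (SE 0.14, adjusted p = 0.0071). E2f1, an activator E2F, was -0.62 against Sar1B (adjusted p = 0.0066), where the Sar1B lines were the high ones at 10.06 and 10.14 and all other lines lay between 9.44 and 9.62. The Rb relative Rbl2 was -0.84 against Sar1B (adjusted p = 0.0077). Against control, E2f8, an atypical repressor E2F, was -0.62 (adjusted p = 0.0233) and the repressor class E2f5 0.64 (adjusted p = 0.0061), the latter also high in the other Sar1 lines at 9.58 to 9.77 beside 8.93 and 9.05 in control. The E2f1, Rbl2 and Cdkn1a calls against Sar1B were kept under all 15 alternative settings. Against control the Cdkn1a and E2f8 calls were lost with either control line left out, E2f8 also with Sar1B:H79G line 1 left out, and E2f5 with control line 2 left out.

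Of 35 other replication genes, 1 was called higher and 5 lower against control, and 3 higher and 5 lower against Sar1B. Orc2, of the origin recognition complex, was 0.81 above control (adjusted p = 0.0055), whereas Rpa1, the large subunit of the single strand binding protein, was at -0.77 against control (adjusted p = 0.0138) and -0.70 against Sar1B (adjusted p = 0.0319). Tk1, thymidine kinase, was -0.84 (adjusted p = 0.0074) and Uhrf1, which reads hemimethylated DNA at the fork, -0.59 (adjusted p = 0.0073), both against Sar1B. Slbp, the histone mRNA binding protein, was -0.95 against control (adjusted p = 0.0145), with all 5 Sar1 lines between 8.91 and 9.44 and control at 10.13 and 10.07. Its call was lost with either control line left out. Rpa1 was lost against control with control line 2 or Sar1B:H79G line 1 left out and was kept against Sar1B under 9 of 15 alternative settings; Orc2, Tk1 and Uhrf1 were kept under all 15.

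Of 49 other mitosis genes, 5 were called higher and 5 lower against control, and 1 higher and 8 lower against Sar1B. The kinetochore gene Spc25, of the Ndc80 complex, was lower in both comparisons (-0.72, adjusted p = 0.0060, and -0.82, adjusted p = 0.0072), while Zwint, another kinetochore gene, was higher in both (1.26, adjusted p = 0.0033, and 1.04, adjusted p = 0.0100). Zwint line means were 12.83 and 12.54 in control, 12.96 in Sar1A, 12.81 and 13.01 in Sar1B, and 14.07 and 13.81 in Sar1B:H79G, so kinetochore genes stood on opposite sides. Kif23, a central spindle kinesin, was -0.89 against Sar1B (adjusted p = 0.0334), and Ube2s, a ubiquitin-conjugating enzyme of the anaphase-promoting complex, 0.68 against control (adjusted p = 0.0218). Both were kept under 10 of 15 alternative settings. Kif23 was lost with only the groups compared and with either Sar1B or either control line left out. Control lines enter that comparison only through the spread estimate. Ube2s was lost with quantile normalization, averaged probe sets, or either control line or Sar1B:H79G line 2 left out. Spc25 and Zwint were kept under all 15 in both comparisons. The list median was -0.05 against control and -0.19 against Sar1B.

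Of 14 S-phase checkpoint and repair genes, 1 was called higher and 2 lower against control, and 4 lower against Sar1B. The helicase gene Blm was -0.43 against control (adjusted p = 0.0203) and -0.51 against Sar1B (adjusted p = 0.0211), and the exonuclease gene Exo1 -0.40 (adjusted p = 0.0300) and -0.44 (adjusted p = 0.0392). Fancd2, of the Fanconi anemia pathway, was -0.57 against Sar1B (adjusted p = 0.0279), and Bard1, the Brca1 partner, 0.47 against control (adjusted p = 0.0335). None of these calls was kept under all 15 alternative settings. Against control Blm was kept under 13, Exo1 under 12 and Bard1 under 11. Against Sar1B Blm was kept under 12, Fancd2 under 10 and Exo1 under 8. Over the settings the log2 difference against Sar1B stayed between -0.56 and -0.43 for Blm, -0.68 and -0.45 for Fancd2, and -0.53 and -0.35 for Exo1. Leaving out a line leaves 1 line in its group, so a lost call does not show that the difference rested on that line. With Sar1B:H79G line 1 left out none of the 6 was kept. In Sar1B against control the 4 lists had 8 genes called higher and 2 lower, and in Sar1A against control none was called. Of all 14217 genes, 671 were called higher and 286 lower in Sar1B against control (6.73%), and 0.865% were called in Sar1A against control.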

How the data were processed

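RNA of 7 McArdle-RH7777 lines was measured on 25 whole-genome Affymetrix rat expression arrays. The authors deposited one table of values on a log2 scale, made with loess normalization and MAS 5 summaries in CARMAweb (version not given in the sources used here); the log base is an inference from how far the values reach, and the table holds no detection calls. MAS 5 signals of dim probe sets are noisy, and loess assumes that most probe sets do not change. Of 31099 probe sets, 57 array controls were left out. Genes were named from the platform annotation, where 20826 probe sets have 1 symbol and 436 have several.

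Arrays of a line were averaged. limma 3.58.1 (R 4.3.3) fitted 4 group means to 7 line means, with 3 residual and 3.16 prior degrees of freedom, and Benjamini-Hochberg adjustment ran over 31042 probe sets. With so few lines, p-values measure the spread between picked clones, and precision is limited by their number. The 40 members were all described; of 4 pathway lists, up to 3 genes with the largest difference among those called were named for Sar1B:H79G against control and against Sar1B. The members and lists were chosen with earlier results of these data known, so no set was tested. Fits were tested on simulated data. Promoters were searched for motifs on both strands. Alternatives were other replicate units, normalizations, filters, variance models and line subsets, and probe sets averaged by gene. Python 3.11.15 and matplotlib 3.10.9 drew the figures.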

Additional observations from a re-analysis of the deposited data

Results flagged for a closer look

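One result stood apart in a check of the highest and lowest array in each group, made for the 7 called members and for the array medians of both gene classes. The log2 value of Gins1 was 9.84 on array 2 of Sar1B:H79G line 1, and the next highest of the 8 Sar1B:H79G arrays was at 9.63. The gap was 0.585 of the range of the group. Chance flags about 1 in 20 groups where the arrays of a group are independent, and 36 were checked. Here the arrays are technical replicates, from 2 lines in every group but Sar1A, so that rate does not strictly hold.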

How the results depend on the processing

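Values are given in the order Sar1B:H79G against control, Sar1B against control, Sar1A against control, Sar1B:H79G against Sar1B, Sar1B:H79G against Sar1A and Sar1A against Sar1B. The probe sets called in limma's test were 6928, 2572, 367, 2680, 920 and 1. With 1 line left out at a time, the count of probe sets called ranged from 1713 to 5873, from 0 to 2698, from 0 to 369, from 1232 to 2115, from 258 to 1164 and from 0 to 26. In the same order and with 1 line left out, the replication genes called ranged from 0 to 3, from 0 to 1, at 0, from 0 to 1, at 0 and at 0. In the same order and with 1 line left out, the mitotic genes called ranged from 0 to 3, at 0, at 0, from 0 to 5, at 0 and at 0. In the same order and with 1 line left out, the replication median ranged from -0.03 to 0.05, from 0.0402 to 0.154, from -0.02 to -0.0032, from -0.13 to -0.07, from 0.02 to 0.09 and from -0.153 to -0.0142. In the same order and with 1 line left out, the mitotic median ranged from -0.283 to 0.0731, from 0.11 to 0.24, from -0.02 to 0.00, from -0.49 to -0.16, from -0.348 to 0.0201 and from -0.24 to -0.13. Leaving out a line that is not in the comparison changes only the spread estimate and its degrees of freedom. For Sar1B:H79G against control, Sar1B against control and Sar1B:H79G against Sar1B it repeated the fit with only the groups compared. That fit called 5873, 2698 and 1482 probe sets, so it enters the counts of settings more than once.

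With each array as a replicate, which counts technical replicates as independent, 16241, 13093, 11251, 9869, 7215 and 3212 probe sets were called, with 9, 6, 2, 8, 8 and 5 replication genes and 6, 9, 7, 11, 7 and 3 mitotic genes. With the line as a random block these were 11805, 8200, 5980, 6879, 4526 and 1191 probe sets, 7, 6, 1, 4, 2 and 3 replication genes and 5, 3, 3, 11, 5 and 1 mitotic genes.

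Quantile normalization gave 4 replication and 4 mitotic genes for Sar1B:H79G against control, all lower, and replication medians of -0.0772, -0.0596 and -0.119 in the comparisons with control; the mitotic median of Sar1B against control was 0.0788, and no replication gene was called against Sar1B. The share of calls that were higher was 75.8% for Sar1B and 84.2% for Sar1A against control, and 57.8% and 71.9% after quantile normalization; with arrays shifted to one median the first was 65.3%. The median of all genes moved by less than 0.1 in each comparison under both scalings. With a trended, robust variance 1 replication gene was called for Sar1B:H79G against control, 0 for Sar1B against control, and 0 replication genes and 1 mitotic gene for Sar1B:H79G against Sar1B, with 1039 probe sets for Sar1A against control and 10 for Sar1A against Sar1B. Probe sets above the median alone gave 1649 calls and 0 replication genes for Sar1B against control, and averaging probe sets by gene also gave 0 replication genes there. With only the groups compared, Sar1A against control had 2330 calls, Sar1B:H79G against Sar1B 1482 (0 replication and 0 mitotic genes), and the last 2 comparisons 0. Counting Ccne1 with the replication genes gave 2 called against Sar1B and 1 against Sar1A; leaving Ccna2 out of the mitotic genes changed no count of calls.

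The line number as a replicate block gave 1 mitotic gene (Ccnb2) for Sar1B:H79G against control, and no replication gene for Sar1B against control (0) or for Sar1B:H79G against Sar1B (0). The numbers name the lines and do not pair them: deviations of lines with the same number correlated at 0.0071, 0.19 and 0.075 in the 3 pairs of groups. No paired analysis was possible for the Sar1A comparisons because that group has 1 line. No called difference of a member or named gene changed sign under any alternative.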
